A study of Mus musculus with 6 samples.

Results

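This report describes 10 hypoxia-induced genes of the HIF (hypoxia-inducible factor) pathway in mouse embryonic fibroblasts with and without the telomere-binding protein RAP1. The genes, Car9, Egln1, Egln3, Bnip3, Vegfa, Adm, Ndrg1, Ankrd37, Pdk1 and P4ha1, were chosen by name as textbook HIF targets. Earlier results of these data were known when these genes and the other lists below were chosen. Counts over a list therefore describe it and do not test it. The probes were found through the RefSeq accession that the array files give for each probe. Of the 10 genes, 9 had a matched probe, of 16531 genes with a matched probe in all, and 13 of the 41174 non-control probes of the array were theirs. No probe carried an accession paired with Ndrg1, so that gene has no value here.

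The study hybridised total RNA from 3 wild-type and 3 Rap1 knockout samples of fibroblasts, each to its own Agilent one-colour array labelled with Cy3. In the knockout the third exon of Rap1 (gene symbol Terf2ip) was flanked by loxP sites and removed by the Cre recombinase. The protocol is the same for all samples: the fibroblasts were infected with the SV40 large T antigen, which lets fibroblasts escape senescence, and with Cre, and were grown with puromycin, so the wild-type controls carry those treatments too. Whether the wild-type cells had floxed alleles, which embryos the samples came from, whether replicates were separate cultures, and the oxygen level of the cultures are not given in the sources used here. Every p-value below therefore measures only the spread between these samples, which may be technical. Replicates are written WT1 to WT3 and KO1 to KO3.

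Cells sense oxygen through prolyl hydroxylases that use it to mark the alpha subunits of HIF. Marked alpha subunits are bound by the von Hippel-Lindau protein (VHL) and destroyed. When oxygen is scarce, the alpha subunits escape this mark, pair with the beta subunit ARNT and bind hypoxia response elements in their target genes. The targets adapt cells to low oxygen: they raise glycolysis, hold pyruvate back from mitochondria, call in blood vessels, export acid, and include the hydroxylases themselves, which closes a negative feedback loop. In fibroblasts, HIF targets also include enzymes that mature collagen.

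The element that HIF binds has the core ACGTG or GCGTG. These cores were searched on both strands in the RefSeq promoters of build GRCm38.p6. CACGT and CACGC are the same cores read from the other strand. The search covered only the 250 bases before each listed start. The sequence around one core of each measured gene is shown so that the shared letters can be seen, with the core in capitals and each sequence 5′ to 3′ on the strand of the gene; a core was printed in the ACGTG form where the promoter held one.
Car9: tatttccgatgCACGTacagcccgtcc
Egln1: ggccgtggtgtACGTGcagcgcgcgcg
Egln3: gtgcatctcagACGTGagatccaggtt
Bnip3: cgcacgcgccgCACGTgccacacgctc
Vegfa: gagtgcgtgccCACGTcagagagcaac
Adm: gcaaatctgacCACGCccaccgtccgc
Ankrd37: cccagcagtACGTGcctagctcggc
Pdk1: cgcctacatggGCGTGtctttaaccag
P4ha1: gtgacagagcgCACGTagcgagggctg

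The printed stretches lie at chr4:43506997-43507023 on the plus strand for Car9, chr8:124949307-124949333 on the minus strand for Egln1, chr12:54204088-54204114 on the minus strand for Egln3, and chr7:138909599-138909625 on the minus strand for Bnip3. They lie at chr17:46025359-46025385 on the minus strand for Vegfa, chr7:110627592-110627618 on the plus strand for Adm, chr8:46000076-46000100 on the minus strand for Ankrd37, chr2:71873135-71873161 on the plus strand for Pdk1, and chr10:59323269-59323295 on the plus strand for P4ha1. All lie upstream of a transcription start, since no other bases were searched. The core began 18 bases before the start in Car9, 16 in P4ha1, 54 in Adm, 68 in Egln1 and 78 in Pdk1. It began 108 bases before the start in Bnip3, 211 in Vegfa, 229 in Egln3 and 241 in Ankrd37. Bnip3's core stands in the palindrome CACGTG, so the search counted it on both strands. The Vegfa stretch is from the second of 2 listed starts; the window of the first start held neither core.

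All 9 measured genes had at least 1 core in a listed promoter window, against 11226 of 27025 genes with a promoter in the table (41.5%). With the ACGTG form alone the count was 7 of 9, all but Adm and Pdk1, against 4998 genes (18.5%). The number of matches ran from 1 in Car9, Egln3 and Pdk1 to 3 in P4ha1, 4 in Ankrd37 and 5 in Bnip3, with 2 in Egln1, Adm and Vegfa. A match describes the letters and does not show that HIF binds there, and the genes were chosen as known targets.

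Values are the log2 of the processed signal relative to the 75th percentile of the same array, so 0 means as bright as that percentile. Between 61.6% and 67.0% of probes were well above background on each array, and no spot was saturated. Terf2ip, the deleted gene, was at −1.84, −1.72 and −1.88 in wild type, while no knockout array had it well above background, at least 37.8-fold lower (limma adjusted p = 0.00851); where its probe lies relative to the deleted exon was not determined. WT2 and WT3 were nearly alike: the SD of their log2 difference over probes was 0.25, against 0.83 to 1.25 for every other pair of arrays. WT1 and KO1 were on slide 1 and the other 4 arrays on slide 2. All 12 fibroblast markers were well above background on all 6 arrays, but their summed signal, in units of the 75th percentile, was 584 to 650 in wild type and 327 to 567 in the knockout. Of the 12, 7 had a lower and 5 a higher mean in the knockout, and none passed the test described below. In 4 of the 12 (Thy1, Pdgfra, Prrx1 and Fn1) every knockout array was below every wild-type array, against 5.77% of all features. In 1, Col5a1, every knockout array was above, against 11.7%. The lowest differences were those of Thy1 and Pdgfra. Thy1, a surface marker of fibroblasts, was at 3.70, 2.82 and 2.88 in wild type and −2.29, 1.84 and 1.92 in the knockout. Pdgfra, a growth factor receptor of mesenchymal cells, was at 2.83, 2.37 and 2.34 in wild type and −1.56, 1.90 and 0.05 in the knockout. The highest was that of Pdgfrb, a related receptor, at 3.80, 2.24 and 2.22 in wild type and 4.49, 3.42 and 2.13 in the knockout.

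None of the 9 genes passed the test between knockout and wild type, but all 9 had a lower mean in the knockout. Their log2 differences ran from −2.79 for Egln3 to −0.47 for Egln1, and 7 of the 9 were at least 2-fold lower and 0 at least 2-fold higher. Over all 19652 features tested, 44.8% had a difference below 0, 6.29% were at least 2-fold lower in the knockout and 3.87% at least 2-fold higher. The genes were chosen with earlier results of these data known, so the contrast with these shares is a description only. The median difference of the 9 genes was −1.14, against 0.06 over all features. In limma's test with Benjamini-Hochberg adjustment, 2 of the 19652 features passed 0.05 (0.0102%), both lower, and the adjusted p of the 9 genes ran from 0.321 to 0.623. At an unadjusted p under 0.05, 3 of the 9 genes (Car9, Egln3 and P4ha1) were lower, against 4.59% of all features (10.3% in either direction). In these bulk samples, fewer cells of a type and less RNA per cell cannot be told apart.

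**Figure D1:**
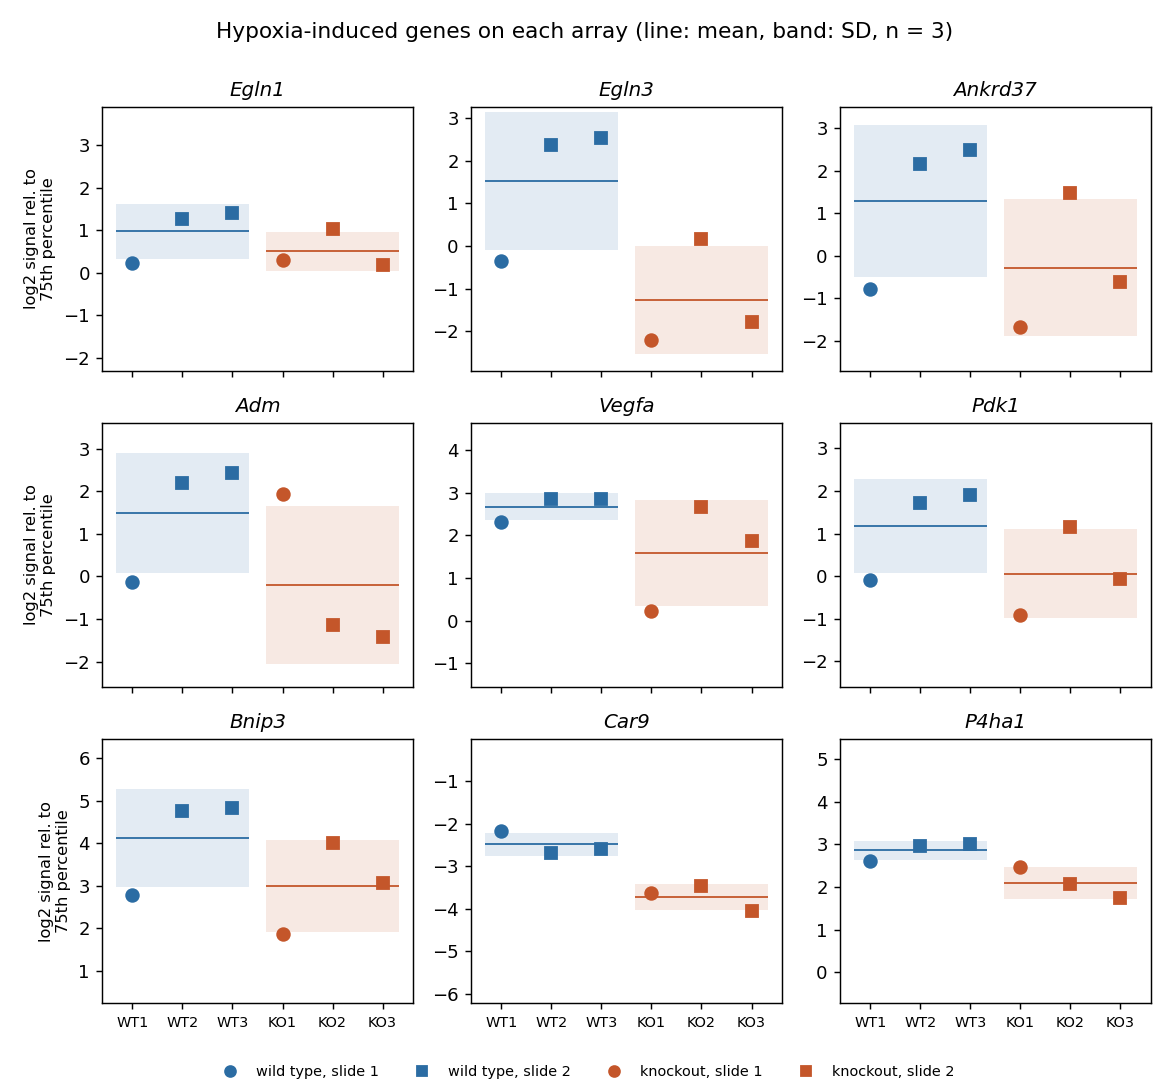
Log2 signal relative to each array's 75th percentile (y axis, the same span in every panel) of the 9 measured genes on each of the 6 arrays (x axis), wild type in blue and knockout in orange, circles for slide 1 and squares for slide 2. Lines are group means and bands 1 SD (n = 3); the wild-type and knockout points are apart for Car9 and P4ha1 and overlap or interleave for Egln1, Vegfa, Adm, Ankrd37, Pdk1 and Bnip3, while in Egln3 the KO2 point lies above WT1.

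Egln3 and Egln1 encode prolyl hydroxylases that mark HIF. Egln3 encodes PHD3, the hydroxylase most strongly induced by HIF in many cells. Its level was −0.35, 2.38 and 2.54 in wild type and −2.20, 0.17 and −1.79 in the knockout. The groups overlapped through one pair, since KO2 stood above WT1. The means were 1.52 ± 1.62 and −1.27 ± 1.27 (SD, n = 3 each), a difference of −2.79 (SE 0.94; 95% interval −5.04 to −0.55), or 6.94-fold lower, with a limma adjusted p of 0.476. The 3 wild-type arrays alone spanned 7.41-fold.

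Egln1 encodes PHD2, the main oxygen sensor among the hydroxylases. It was at 0.23, 1.27 and 1.41 in wild type and 0.29, 1.03 and 0.19 in the knockout. WT1 lay among the knockout values, and WT2 and WT3 above all of them. The difference was −0.47 (SE 0.40; 95% interval −1.43 to 0.49; limma adjusted p = 0.623), and ran from −0.84 without WT1 to −0.25 without WT3. A second Egln1 probe gave −2.12, −1.09 and −0.90 in wild type and −2.14, −1.31 and −2.23 in the knockout, a difference of −0.52 with the same order of WT1 below WT2 and WT3 and of KO2 above the other knockout arrays. The third hydroxylase gene, Egln2, is given with the regulators.

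Vegfa encodes the growth factor that draws new blood vessels. It was at 2.32, 2.86 and 2.86 in wild type and 0.22, 2.67 and 1.88 in the knockout. KO2 stood within the wild-type range, and KO1 was the lowest. The means were 2.68 ± 0.31 and 1.59 ± 1.25 (SD, n = 3 each), and the difference was −1.09 (SE 0.61; 95% interval −2.54 to 0.36; limma adjusted p = 0.516). Without KO1 the difference was −0.40. The other 2 Vegfa probes differed by −0.89 and −0.93. One of them is printed 10 times on the array: its means over the spots were 1.94, 2.12 and 2.27 in wild type and 0.06, 2.58 and 1.04 in the knockout, where KO2 was above all 3 wild-type arrays. The SD between its spots within an array was 0.048 to 0.067, which covers the error of the spots only and not that of RNA, labelling or culture.

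Adm encodes adrenomedullin, a secreted peptide that widens vessels. Its levels were −0.13, 2.19 and 2.42 in wild type and 1.93, −1.14 and −1.42 in the knockout. KO1 was the highest knockout array, 10.2-fold above KO3 and above WT1, and WT1 was the lowest wild-type array, as in most of the genes. The difference was −1.71 (SE 1.06; 95% interval −4.24 to 0.83; limma adjusted p = 0.534). It moved to −2.78 without KO1 and to −1.10 without KO3.

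Pdk1 and Bnip3 act on mitochondria. Pdk1 encodes pyruvate dehydrogenase kinase, which holds pyruvate back from the citric acid cycle, and was at −0.10, 1.73 and 1.91 in wild type and −0.91, 1.16 and −0.07 in the knockout. Bnip3 encodes a protein of the outer mitochondrial membrane that marks mitochondria for autophagy, and was at 2.79, 4.76 and 4.82 in wild type and 1.87, 4.02 and 3.08 in the knockout. In both genes WT1 lay within the knockout range, and KO2 stood at least 2-fold above WT1. The difference of Pdk1 was −1.12 (SE 0.71; 95% interval −2.81 to 0.57; limma adjusted p = 0.538). The difference of Bnip3 was −1.14 (SE 0.73; 95% interval −2.89 to 0.61; limma adjusted p = 0.540). Leaving out KO1 gave −0.63 for Pdk1 and −0.58 for Bnip3, and leaving out WT1 gave −1.76 and −1.81.

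Ankrd37 encodes an ankyrin repeat protein. It was at −0.77, 2.16 and 2.48 in wild type and −1.68, 1.46 and −0.61 in the knockout, with KO2 and KO3 both above WT1. Its wild-type arrays spanned 9.56-fold and its knockout arrays 8.85-fold. The difference was −1.56 (SE 1.09; 95% interval −4.17 to 1.04; limma adjusted p = 0.565), and ran from −2.60 without WT1 to −0.86 without KO1.

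Car9 and P4ha1 were the members whose groups did not overlap. Car9 encodes carbonic anhydrase IX, a membrane enzyme that helps cells export acid, and was at −2.18, −2.68 and −2.59 in wild type and −3.63, −3.46 and −4.05 in the knockout. The means were −2.49 ± 0.27 and −3.71 ± 0.30 (SD, n = 3 each), a difference of −1.23 (SE 0.27; 95% interval −1.86 to −0.60) or 2.35-fold lower, with a limma adjusted p of 0.321. The wild-type arrays spanned 0.50 and the knockout arrays 0.59 on the log2 scale, less than the difference between them. Leaving out 1 array at a time gave −1.36 to −1.06, but the difference was −0.76 with normexp background correction and −0.77 with the deposited value table. Car9 was also the member in which WT1 was the highest array.

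P4ha1 encodes the catalytic alpha subunit of the prolyl hydroxylase that lets collagen form stable triple helices. It was at 2.61, 2.97 and 3.00 in wild type and 2.47, 2.06 and 1.74 in the knockout, so that every knockout array was below every wild-type array, KO1 by a small margin. The difference was −0.77 (SE 0.27; 95% interval −1.42 to −0.12) or 1.70-fold lower, with a limma adjusted p of 0.478. Its second probe differed by −0.81. Over all features, 5.77% had every knockout array below every wild-type array, and 2 of the 9 genes did.

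The arrays of slide 1 and slide 2 were then compared within each slide. On slide 1, with 1 array a group and so no test, 7 of the 9 genes were lower on KO1 than on WT1, against 41.2% of all features, with a median of −0.91. On slide 2, with 2 arrays a group, all 9 were lower, against 47.5% of all features, with a median of −1.25, and 7 were at least 2-fold lower, against 8.17%. The Adm difference changed sign between slides, 2.06 on slide 1 and −3.59 on slide 2, and Egln1 was 0.06 and −0.73. Vegfa was −2.09 on slide 1 and −0.58 on slide 2, Egln3 −1.85 and −3.27, Ankrd37 −0.91 and −1.89, and P4ha1 −0.13 and −1.09. Car9 was −1.45 and −1.12, Bnip3 −0.93 and −1.25, and Pdk1 −0.82 and −1.27. In limma's fit to slide 2 alone, Adm passed the threshold (adjusted p = 0.0285), as did 312 of the 19652 features, and the other 8 genes did not. The wild-type arrays of that fit were only WT2 and WT3, which were nearly alike (SD of their log2 difference 0.25), so its wild-type spread leaves out WT1. The slide 2 counts above rest on the same pair. With WT2 and WT3 averaged and all other arrays kept, limma called 0 features. With slide as a block over all 6 arrays the differences could not change, since each slide holds as many knockout as wild-type arrays. The limma adjusted p of the 9 genes then ran from 0.144 to 0.467.

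**Figure D2:**
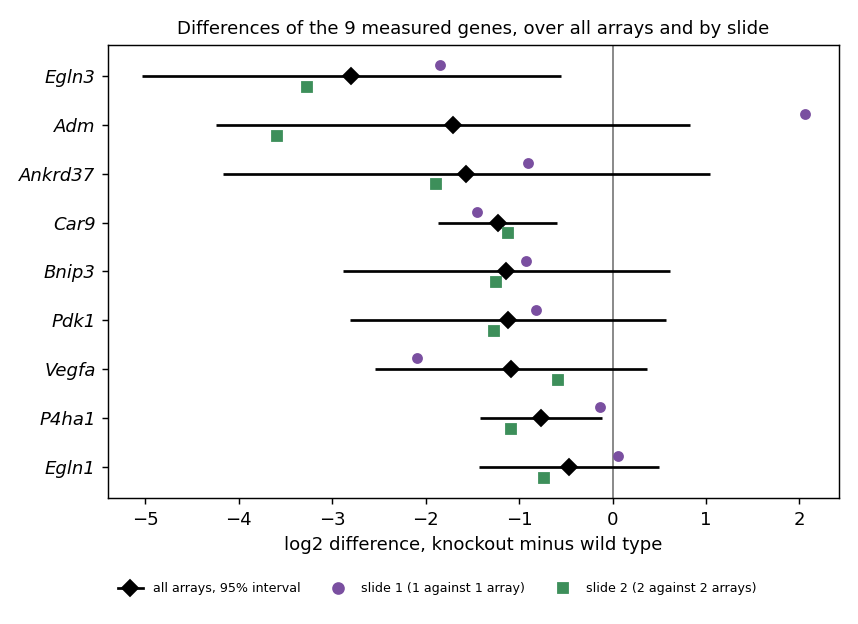
Log2 difference of knockout minus wild type (x axis) for each of the 9 measured genes (y axis), from all 6 arrays with its 95% interval (black diamonds, n = 3 against 3), on slide 1 (purple circles, 1 array against 1) and on slide 2 (green squares, 2 against 2). The intervals of Egln3, Car9 and P4ha1 leave out 0, and the slide 1 points of Adm and Egln1 lie above 0.

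Much of the spread of these genes lay between arrays of the same genotype. Genotype accounted for a median of 28.9% of the sum of squares of the 9 genes, from 20.9% in Egln1 to 87.4% in Car9, against a median of 23.1% over all features. Their residual SD had a median of 1.08, against 0.39 over all features. In 6 of the 9 genes the wild-type arrays alone spanned more than the difference between the group means, and in 6 the knockout arrays did. The range over the wild-type arrays was at least 2-fold in 6 of the 9 genes and in 19.8% of all features. The same count in the knockout was 6 of 9, against 37.7%.

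The order of the arrays was shared by most of the genes. WT1 was the lowest wild-type array in 8 of the 9 genes, all but Car9, against 50.2% of all features. WT2 and WT3 were both at least 2-fold above WT1 in 6 genes, against 7.76% of all features. KO2 was the highest knockout array in 7 genes, all but Adm and P4ha1, against 33.2% of all features. WT2, WT3 and KO2 were the 3 highest arrays in 6 of the 9 genes, against 11.3% of all features. KO1 was below every wild-type array in 7 genes, KO3 in 6 and KO2 in 3. For these single-array counts the share over all features was not taken, so they cannot be set against a background. The median of the 9 genes, each centred on its mean over the 6 arrays, was −0.51, 1.11 and 1.27 in WT1 to WT3 and −1.53, 0.29 and −0.73 in KO1 to KO3. WT2 and WT3 were thus the high arrays, KO1 and KO3 the low ones, and WT1 and KO2 lay between, with KO2 the higher of the pair. What moved the genes together between arrays of one genotype was not tested.

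Because WT2 and WT3 were nearly alike, each difference was also taken with the pair averaged and counted as 1 array. All 9 differences stayed below 0, at −2.33 for Egln3, −1.31 for Car9, −1.298 for Adm, −1.05 for Ankrd37, −0.996 for Vegfa, −0.81 for Bnip3, −0.80 for Pdk1, −0.71 for P4ha1 and −0.28 for Egln1. None passed, with limma adjusted p of 0.934 to 0.939. Against WT1 alone, the knockout mean was lower in 5 of the 9 genes, against 40.2% of all features. It was 1.53 lower for Car9 and 0.92 lower for Egln3 on the log2 scale, and higher by 0.50 for Ankrd37, 0.27 for Egln1, 0.19 for Bnip3 and 0.16 for Pdk1.

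The genes that build and control HIF did not follow the 9 targets as a group. Of 23 listed subunits and regulators, 21 were tested, none passed, 6 were lower in the knockout and 15 higher, with a median of 0.23. Hif1a, which encodes the oxygen-regulated subunit HIF-1 alpha, was at 2.11, 2.57 and 2.48 in wild type and 0.34, 1.44 and 1.67 in the knockout, so that all knockout arrays were below all wild-type arrays. Knockout minus wild type came to −1.24 (SE 0.39; 95% interval −2.16 to −0.31; limma adjusted p = 0.470), −1.77 within slide 1 and −0.97 within slide 2. WT1 was again the lowest wild-type array, but KO3, not KO2, was the highest knockout array. Epas1, which encodes HIF-2 alpha, was not well above background on any array. Hif3a differed by 0.22 (SE 0.31) and Arnt, the beta subunit, by 0.06 (SE 0.27); without KO2 they were −0.0056 and −0.14.

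Among the enzymes and partners that restrain HIF, Hif1an, which encodes the asparagine hydroxylase FIH that blocks HIF's coactivator contact, was at −0.85, −1.41 and −1.46 in wild type and −0.13, −0.88 and −0.58 in the knockout. KO2 was the knockout array that fell just below WT1. The difference was 0.71 (SE 0.30; limma adjusted p = 0.485), and the 3 Hif1an probes gave 0.47 to 0.71. Egln2, the third hydroxylase, differed by 0.28 (SE 0.25). Cited2 competes with HIF for the coactivators CBP and p300. Its brightest probe was higher on every knockout array, at 3.28, 3.50 and 3.50 against 4.05, 3.56 and 3.57, a difference of 0.30 (SE 0.24). Over all features, 11.7% had every knockout array above every wild-type array. The other Cited2 probes differed by 0.44 and 0.48, and in the last of them KO2 (1.20) was below WT1 (1.22). No probe was matched to Vhl. Of the other regulators, the lowest were Cul2 (−0.39), a scaffold of the VHL ubiquitin ligase, Eloc (−0.37), its elongin C subunit, and the chaperone gene Hsp90aa1 (−0.27). The highest were Cited4 (0.94), Elob (0.59), which encodes elongin B, and Sart1 (0.55). None of these passed.

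**Figure D3:**
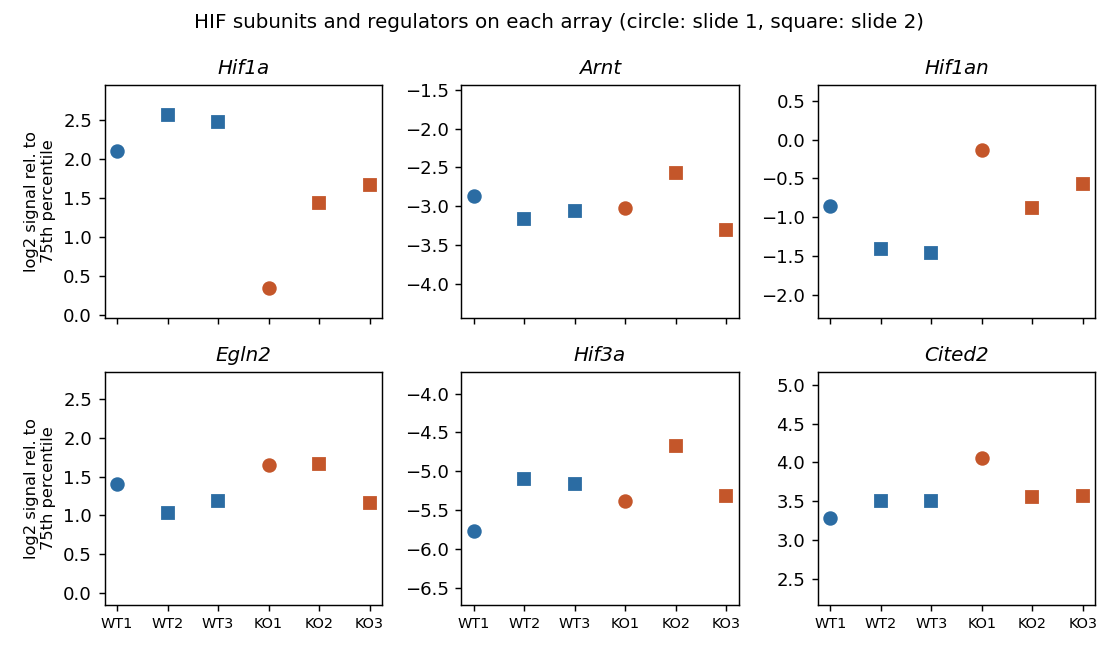
Log2 signal relative to each array's 75th percentile (y axis, the same span in every panel) of Hif1a, Arnt, Hif1an, Egln2, Hif3a and Cited2 on each array (x axis), wild type in blue and knockout in orange, circles for slide 1 and squares for slide 2. The 3 knockout points of Hif1a lie below its wild-type points, those of Cited2 above, and those of the other 4 genes overlap the wild type.

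A wider list of 50 HIF targets outside glycolysis had 46 tested members. None passed, 39 were lower in the knockout and 7 higher, and the median over the list was −0.35 (slide 1 −0.20, slide 2 −0.59). At least 2-fold lower were 9 of the 46, against 6.29% of all features. The lowest was Flt1, which encodes a receptor for VEGF, at −2.29, 0.21 and 0.42 in wild type and −3.67, −2.46 and −2.53 in the knockout, a difference of −2.33 (SE 0.76; limma adjusted p = 0.475). Like most of the 9 genes, it was low on WT1 among the wild-type arrays. Next were Vldlr, a lipoprotein receptor gene, with −1.97 (SE 0.62; adjusted p = 0.470), and Angptl4, a secreted inhibitor of lipoprotein lipase, with −1.70 (SE 1.00; adjusted p = 0.527); the Angptl4 spot of WT3 was an outlier and was left out. The highest were Narf (0.72, SE 0.32), Pfkfb4 (0.67, SE 0.22), an enzyme that sets the level of a glycolytic activator, and Tfrc (0.46, SE 0.52), the transferrin receptor that brings iron into cells. Tfrc was −0.04 without KO3.

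In 4 of the 46 targets every knockout array with a value was below every wild-type array, and in 1, Pfkfb4, all were above; the background shares were 5.77% and 11.7%. The 4 were Flt1, Vldlr, Bhlhe41, a circadian repressor, and Slc2a3, a glucose transporter, of which the last pair were picked out after their values were seen. Bhlhe41 rests on KO2 and KO3, since its KO1 spot was left out.

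Of 14 tested genes for the glycolytic enzymes that HIF induces, none passed, 9 were lower and 5 higher, and the median difference was −0.08. The slides differed in sign, with a median of 0.12 on slide 1 and −0.30 on slide 2, against 0.17 and 0.03 over all features. Hk2, the hexokinase that HIF induces, had the lowest difference, −0.88 (SE 0.39; limma adjusted p = 0.492), followed by Pfkp, a phosphofructokinase, with −0.55 (SE 0.52), and Gpi1 with −0.32 (SE 0.38). Aldoc (0.19), Tpi1 (0.15) and Pkm (0.09) had the highest differences, and each changed sign when WT1 or KO2 was left out. WT2, WT3 and KO2 were the 3 highest arrays in 11 of the 14 glycolytic genes and in 17 of the 46 other targets, against 11.3% of all features. The centred median of the glycolytic genes was −0.38, 0.22 and 0.40 in WT1 to WT3 and −0.25, 0.51 and −0.37 in KO1 to KO3, so KO2 was their highest array.

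**Figure D4:**
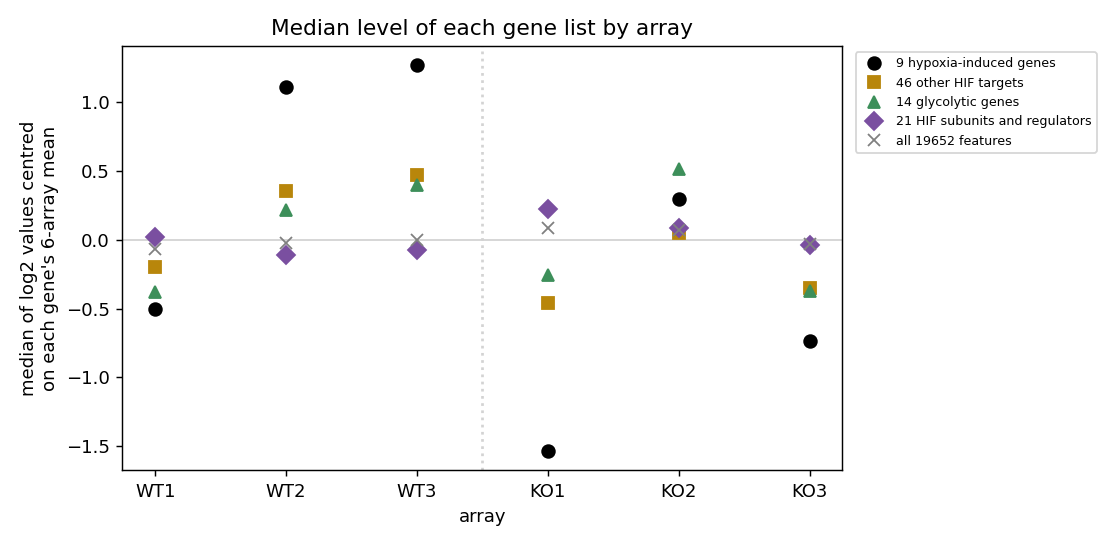
Median over the genes of each list (y axis, log2 values centred on each gene's mean over the 6 arrays) on each array (x axis): the 9 hypoxia-induced genes, 46 other HIF targets, 14 glycolytic genes, 21 subunits and regulators, and all 19652 features. The 9 genes run from −1.53 on KO1 to 1.27 on WT3, the glycolytic genes peak at 0.51 on KO2, and the regulators and all features stay near 0.

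Vegfa and some other HIF targets are also known to answer to ATF4 and the unfolded protein response, which cells switch on when amino acids run short or proteins misfold. Of 16 such genes tested, none passed, 15 were lower in the knockout and 1 was higher, with a median of −0.33, −0.36 on slide 1 and −0.29 on slide 2. The lowest were Slc7a11, the cystine transporter gene, with −2.42 (SE 0.98; limma adjusted p = 0.485), Trib3, a pseudokinase gene induced by ATF4, with −1.65 (SE 0.34; adjusted p = 0.300), and Chac1, which encodes a glutathione-degrading enzyme, with −1.61 (SE 0.32; adjusted p = 0.294). Slc7a11 was not well above background on KO1, at −7.68; with normexp its difference was −0.97 and with the deposited value table −0.98, and Trib3 and Chac1 were then lower, at −1.75 and −1.72 with normexp. The highest were the chaperone gene Hspa5 (0.23), Phgdh (−0.06) and Slc3a2 (−0.07). In 6 of the 16 genes every knockout array was below every wild-type array, against 5.77% of all features. The centred median of this list was 0.03 on WT1, where that of the 9 hypoxia-induced genes was −0.51.

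The genes whose profile over the 6 arrays was most like that of the 9 were found by the root mean square difference from their centred median profile, among 11861 genes compared. Pdk1 and Bnip3 lay closest to it among the 9 themselves, at 0.14 and 0.18, and Adm lay farthest, at 1.56. The nearest other genes were Dio3, a deiodinase that inactivates thyroid hormone (0.147), Kctd12b (0.208), Ptpn5, a tyrosine phosphatase gene (0.236), and Sox7, a transcription factor gene (0.247). They were followed by Ly6c1, a surface antigen gene (0.252), Arrdc3, an arrestin-domain gene (0.257), Adora2b, an adenosine receptor gene (0.259), and M1ap (0.268). None of the 8 was in a list used here. Sox7 was at −6.92 on KO1 and not well above background there, so its distance rests on a value below that bound. With normexp, Sox7's difference went from −1.39 to −0.45 and that of Ptpn5 from −1.25 to −0.48. Dio3 was at −0.53, 0.72 and 0.86 in wild type and −1.96, −0.05 and −1.20 in the knockout. Among the 100 nearest genes were 5 of the 46 other targets (Ero1a, Selenbp1, Ak4, Rbpj and Gys1), 2 of the 14 glycolytic genes (Pfkp and Hk2), and none of the regulators or the ATF4 list. The likeness rests on 6 arrays of which 2 were nearly alike.

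Markers of other cell types were read beside these results. The summed signal of 7 epithelial markers, in units of the 75th percentile, was 3.46 to 5.59 in wild type and 4.50 to 12.7 in the knockout. Of the 6 tested, 4 had a lower and 2 a higher mean in the knockout, none passing: Krt18 was at 1.48, 0.73 and 0.97 in wild type and 2.34, 3.58 and 1.84 in the knockout, Krt19 at 2.77 on KO1 but −1.05 on KO2, and Krt8 differed by −1.74. The 5 endothelial markers summed to 0.0439 to 0.203 in wild type and 0.0244 to 0.213 in the knockout, with Pecam1, Cdh5 and Emcn not well above background on any array. The defining blood markers Ptprc, Adgre1 and Itgam, the fat cell markers Adipoq and Cfd and the muscle markers Myod1 and Myog were likewise not well above background on any array. The blood marker Csf1r was well above background on WT1 and the 3 knockout arrays, and the muscle marker Des on WT1, WT2 and KO3. The fat cell marker Plin1 was so on the 3 knockout arrays only. Plin1 was at −7.82, −7.59 and −8.60 in wild type and −6.60, −6.79 and −7.14 in the knockout. Its difference was 1.16 (SE 0.33, limma adjusted p = 0.454), with the wild-type values not well above background. The sums of the 4 matched blood markers were 0.0166 to 0.0573 in wild type and 0.0146 to 0.0246 in the knockout, and those of the 3 fat cell markers 0.00764 to 0.00859 and 0.00955 to 0.0141. The 3 muscle markers summed to 0.0167 to 0.501 and 0.0121 to 0.0217, and the 2 matched nerve markers to 1.27 to 6.95 and 0.915 to 1.49. WT1 was the highest array for the blood, muscle and nerve markers. The endothelial sum was 0.203 on WT1 and 0.213 on KO1, against 0.0244 to 0.0735 on the other arrays. The fibroblast markers did not share one order over the arrays: on KO1, low in the centred median of the 9 genes, Thy1 and Pdgfra were at their lowest and Pdgfrb at its highest. The part of these markers in the results was not tested.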

How the data were processed

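Per the file headers, the authors scanned each array and extracted it with Agilent Feature Extraction 10.5.1.1; the deposited processed signal is a background-corrected intensity on a linear scale. The submitters' processing notes name limma. The deposited value table, whose range is that of log2 values (column medians 6.86 to 6.87) and whose normalization and centring are unstated, was used as an alternative; its knockout columns 1, 2 and 3 match the scanner files KO2, KO3 and KO1 best.

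Control and outlier spots were left out, log2 signals were scaled to each array's 75th percentile, and spots of a probe were averaged. Probes entered the fit when every array of at least one genotype had them well above background, and each gene was represented by its brightest such probe. Names came from RefSeq accessions (GRCm38.p6): 23366 of 41174 probes matched a symbol. limma 3.58.1 (R 4.3.3, lmFit, eBayes, 2-sided, no block) tested knockout against wild type over 19652 features. The fit was checked on simulated data with independent arrays, so the check does not cover nearly alike arrays such as WT2 and WT3. The number of arrays, 3 a group, limits the precision.

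The genes and lists were chosen with earlier results of these data known. Named genes are all members, 8 core HIF subunits and regulators, the 3 lowest and 3 highest of each other list and any that passed, and the 8 genes nearest in profile. Same-numbered arrays did not deviate together (correlations 0.01, 0.05 and −0.08). Alternatives covered background correction (normexp with offset 50 on the median signal), normalization, scaling, the value table, filters, probe choice, variance model, blocks and left-out arrays.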

Additional observations from a re-analysis of the deposited data

How the results depend on the processing

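The median difference of the 9 genes was −1.14 and kept its direction under every alternative run. Each of the 9 genes did so under the 18 alternatives that give 1 value a gene. The variance model and the blocks change only the error and not these differences, so they are no check of direction. The other filters and testing every probe also left the median at −1.14. Slide 1 by itself and WT1 as the only control, which are not among the alternatives, turned Adm and Egln1, and Ankrd37, Egln1, Bnip3 and Pdk1, above 0. Leaving out 1 array at a time gave medians of −1.76 to −0.86, and averaging WT2 and WT3 gave −0.996. No alternative called any of the 9 except slide 2 alone, which called 1, Adm. There the nearly alike WT2 and WT3 were the only wild-type arrays. The replicate numbers share no deviation, so the replicate block is reported here alone: it called 0 features (2334 at an unadjusted p under 0.05, limma) and 0 of the 9 genes (5 unadjusted), with adjusted p of 0.258 to 0.571. At an unadjusted p under 0.05 were 7 of the 9 with slide as a block, 7 without WT1 and 1 with WT2 and WT3 averaged, against 3.

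Against the 2 features called, limma called 0 among probes well above background on all 6 arrays (1780 unadjusted), 4 with the mean of a gene's probes, 6 with every probe tested, 0 with slide as a block (3476 unadjusted), 0 with WT2 and WT3 averaged (693 unadjusted) and 312 on slide 2 alone. Leaving out 1 array gave 0 (without WT2, WT3 or KO1; 695, 701 and 1627 unadjusted) to 64 (without WT1), with 6 without KO2. Slide 2 alone and the fit without WT1 have the nearly alike WT2 and WT3 as their only wild-type arrays. Scaling to the median moved the median of all features from 0.06 to 0.16.

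Of the 48 genes named, 9 with small differences changed sign; the cause was not tested. Pkm became −0.11 with normexp, −0.12 with quantile normalization, −0.12 with the value table and −0.019 on slide 2. Tpi1 became −0.059 with quantile normalization and −0.051 with the value table. Median scaling gave 0.024 for Slc3a2 and 0.034 for Phgdh, and slide 2 gave 0.086 for Phgdh and −0.0080 for Hspa5. Without 1 array, Pkm ran from −0.19 to 0.26, Tpi1 from −0.16 to 0.39, Aldoc from −0.25 to 0.83, Slc3a2 from −0.25 to 0.037, Phgdh from −0.36 to 0.10, Hspa5 from −0.00386 to 0.43, Arnt from −0.14 to 0.23, Hif3a from −0.00564 to 0.35 and Tfrc from −0.038 to 0.91. Signal over background limits Epas1, Terf2ip in the knockout and, on KO1, Slc7a11 and Sox7.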
